A study of Mus musculus with 12 samples.

Results

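The 44 genes described here encode the enzymes that break down macromolecules inside lysosomes and the proteins of the lysosomal membrane. They were taken as a fixed list of gene symbols, chosen with earlier results of these data known. It held 13 proteases, the thiol reductase Ifi30 and 9 genes of lipid handling. Besides these it held 10 glycosidases, 5 sulfatases, 5 membrane proteins and the transcription factor Tfeb. All 44 were found among the 55836 gene symbols of the deposited tables, and 43 had enough reads to be tested. The exception was cathepsin K (Ctsk), with 1 to 11 reads per library.

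The samples were livers of mice, all labelled male and homozygous for a floxed allele of the aryl hydrocarbon receptor (AhR fl/fl). The labels used here name no Cre, so whether the receptor is intact or deleted in these livers is not given. Mice entered the study at 8 weeks of age and were fed for 20 weeks. The MD+CA group received a diet with 40% of its calories from fat and 20% from fructose, plus 2% cholesterol, and cinnabarinic acid injected into the peritoneum 3 times a week at 12 mg/kg. The MD group received the same diet and, on the same schedule, the vehicle with 0.2% DMSO. The CD group received a control diet with 10% of its calories from fat and matching sucrose, and no injection is given for it. Cinnabarinic acid is a tryptophan metabolite known as a ligand of the aryl hydrocarbon receptor. Each group had 4 libraries. The labels do not say whether the 4 come from separate mice, so p-values measure the spread between libraries. In whole liver, fewer cells of a type and less RNA per cell cannot be told apart.

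Lysosomes receive most of their soluble enzymes from the Golgi by way of mannose 6-phosphate tags and are kept acidic by a proton pump. In the liver, hepatocytes use them for autophagy and for hydrolysing cholesterol esters taken up with lipoproteins, while Kupffer cells, the resident macrophages, degrade what they engulf and load peptides onto MHC class II. Cathepsin S, cathepsin C, asparaginyl endopeptidase (Lgmn) and Ifi30 are known from immune cells, but not from these alone. Genes such as Ctsl and Lamp1 are expressed in most cell types.

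Between 9089586 and 14492587 reads were assigned per library. MD+CA libraries carried 4.98 to 7.94% mitochondrial reads, MD libraries 6.16 to 17.5% and CD libraries 5.72 to 6.63%. MD replicate 2 stood apart, with 17.5% mitochondrial reads and the shortest fragment length allowance, 221 bases, against 227 to 280 bases in the others. This allowance is the transcript length minus Salmon's effective length. MD replicate 2 gave the lowest level of the 12 libraries for 17 of the 43 tested members (39.5%) and for 23.5% of all tested genes. All 12 libraries, although labelled male, held 5122 to 12865 reads of Xist, the RNA of the inactive X chromosome, and 0 reads of the Y-linked genes Ddx3y, Kdm5d, Uty and Eif2s3y. The sex label and the reads thus differ in every group alike.

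Levels of different genes were compared per transcript length, in TPM, the length-scaled abundance of a gene relative to all others of its library. Cathepsin L (Ctsl), an endopeptidase, was the most abundant, with a mean of 516 TPM over the 12 libraries. The membrane glycoproteins Lamp1 and Lamp2 followed with 248 and 221 TPM, then cathepsin Z (Ctsz) with 174 TPM and progranulin (Grn) with 139 TPM. These 5 genes held 42.5 to 64.8% of the TPM of all 44 members, depending on the library. At the other end stood Ctsk with 0.38 TPM, the heparan sulfatase Sgsh with 0.83 TPM and the sulfatase Galns with 0.96 TPM. Tfeb, which encodes the transcription factor that governs lysosomal genes, averaged 2.94 TPM. All members together made up 0.257% ± 0.0335 of TPM in MD+CA livers, 0.18% ± 0.0575 in MD livers and 0.242% ± 0.0177 in CD livers (SD, n = 4 each), and the ranges of the 3 groups overlapped. Proteases took 56.0% of the members' TPM in MD+CA livers, 50.1% in MD livers and 55.8% in CD livers, and sulfatases 0.43, 0.513 and 0.431%.

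**Figure D1:**
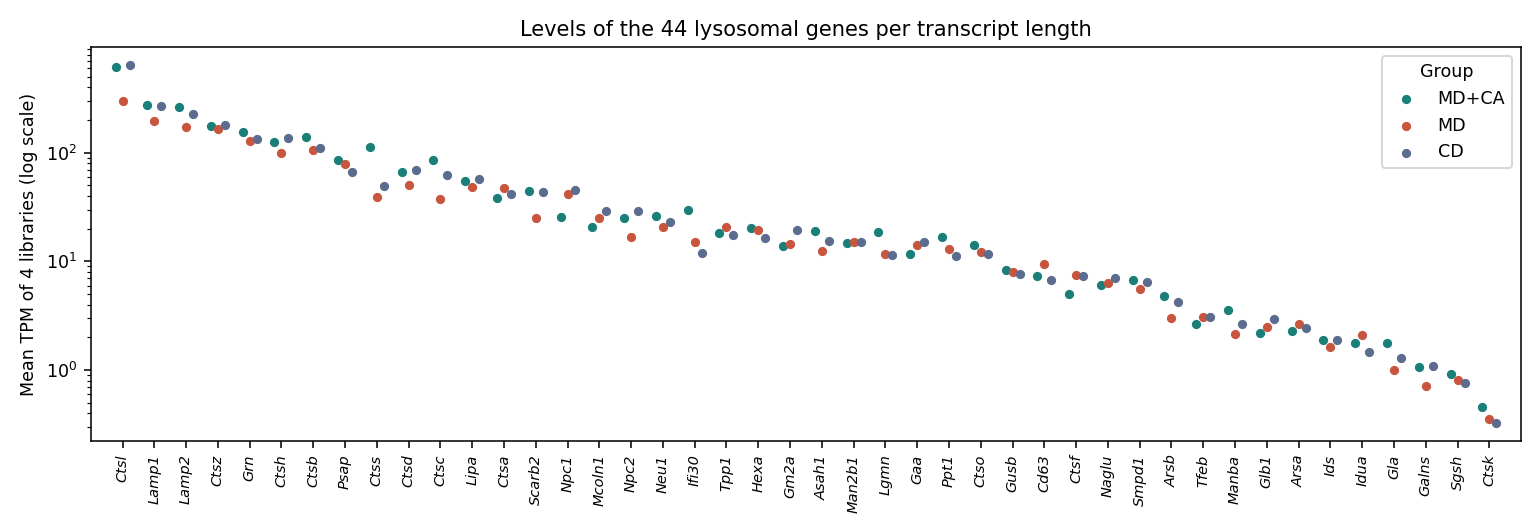
Mean TPM of each of the 44 lysosomal genes (log axis) in MD+CA, MD and CD livers, 4 libraries each, sorted by the mean over all libraries. Ctsl leads with 516 TPM and Ctsk ends the order with 0.38 TPM; Ctss and Ifi30 lie above MD and CD in the MD+CA group.

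Few of the lysosomal genes differed between groups beyond the spread of their libraries. In MD+CA against MD livers, Ctsc, Ctss and Ifi30 were higher in edgeR's quasi-likelihood test at an adjusted p under 0.05, and no member was lower. That is 3 of 43 members, while 1.09% of all 13620 tested genes were called higher and 1.68% lower, 2.78% in all, in that comparison. Ifi30 was also higher in MD+CA against CD livers, and no member was lower, where 0.22% of all genes were called higher and 0.308% lower, 0.529% in all. In MD against CD livers edgeR called 0 members, as did DESeq2 and limma voom; 0.0441% of all genes were called higher and 0.0441% lower, 0.0881% in all. The 3 comparisons share samples in pairs, so each is given with its own values.

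At an unadjusted p under 0.05, 6 members were higher and 2 lower in MD+CA against MD livers, when 11.6% of all genes passed in each direction. For MD+CA against CD livers the counts were 5 higher and 2 lower, with 6.18 and 4.35% of all genes. For MD against CD livers they were 2 higher and 3 lower, with 10.6 and 9.41% of all genes. In both directions together these were 8, 7 and 5 of the 43 members, against 23.2, 10.5 and 20% of all genes. The median log2 fold change of the 43 members was 0.09 in MD+CA against MD livers, 0.03 in MD+CA against CD livers and 0.00 in MD against CD livers, when that of all tested genes was 0.00, 0.02 and 0.04. Over the alternative settings these medians of the members ranged from -0.06 to 0.18, -0.03 to 0.12 and -0.03 to 0.07, so none had a stable sign.

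Cathepsin S (Ctss) is the endopeptidase that trims the invariant chain of MHC class II, and its mRNA was 2.51-fold higher in MD+CA than in MD livers. In TMM-scaled CPM, the reads of a gene relative to all reads of its library, replicates 1 to 4 had 64.7, 140.1, 76.1 and 93.5 CPM in MD+CA livers, 29.4, 23.8, 50.2 and 45.5 CPM in MD livers and 35.5, 49.9, 49.3 and 35.5 CPM in CD livers. All 4 MD+CA libraries lay above all 8 others, and replicate 2 was highest. The log2 fold change was 1.33 (SE 0.28, adjusted p = 0.0248) in edgeR's quasi-likelihood test for MD+CA against MD. For MD+CA against CD it was 1.14 (SE 0.28, adjusted p = 0.0816), which did not pass the threshold in edgeR. In that comparison 4 of 22 alternative settings called Ctss higher. These were DESeq2, limma voom, edgeR without the low-count filter, and edgeR with the fragment length allowance as a covariate.

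Cathepsin C (Ctsc) activates the serine proteases of granulocytes, mast cells and cytotoxic lymphocytes by cutting off their N-terminal dipeptide. It had 180.1, 170, 195 and 125 CPM in MD+CA livers, 75.95, 58.1, 102.3 and 82.7 CPM in MD livers and 114, 152, 107.2 and 99.8 CPM in CD livers. MD+CA and MD libraries did not overlap, and MD livers were the lowest group, with CD libraries between and overlapping both. The log2 fold change for MD+CA against MD was 1.07 (SE 0.23, adjusted p = 0.0243) in edgeR, a 2.10-fold difference. It was 0.50 (SE 0.22, adjusted p = 0.426) for MD+CA against CD and -0.57 (SE 0.22, adjusted p = 0.188) for MD against CD in edgeR.

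Ifi30 encodes the lysosomal thiol reductase that opens disulfide bonds of antigens, an interferon-gamma-inducible gene. It had 27.6, 24.1, 22.4 and 16.2 CPM in MD+CA livers, 13.5, 9.06, 13.4 and 13.6 CPM in MD livers and 9.26, 8.91, 8.59 and 8.9 CPM in CD livers. The CD libraries lay within a narrow band, and every MD+CA library was above every MD and CD library. In edgeR the log2 fold change was 1.34 (SE 0.20, adjusted p = 0.00861) for MD+CA against CD, a 2.53-fold difference. For MD+CA against MD it was 0.86 (SE 0.20, adjusted p = 0.0343), and for MD against CD 0.48 (SE 0.20, adjusted p = 0.208). Of the members' calls, Ifi30 in MD+CA against CD held in each of the 22 alternative settings run for single genes, with adjusted p between 1.52e-06 and 0.0493.

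Legumain (Lgmn), the asparaginyl endopeptidase that processes cathepsins and antigens, lay just outside the threshold. It had 33.5, 25.9, 34.7 and 32.9 CPM in MD+CA livers, 21.2, 16.7, 21.9 and 18.3 CPM in MD livers and 19.1, 14.4, 20.8 and 19.9 CPM in CD livers, with every MD+CA library above every other. In edgeR the log2 fold change was 0.70 (SE 0.18, adjusted p = 0.0507) for MD+CA against MD and 0.77 (SE 0.18, adjusted p = 0.0647) for MD+CA against CD. Groups did not overlap in MD+CA against MD livers for 4 members that were higher (Ctsc, Ctss, Ifi30 and Lgmn) and 1 that was lower (Mcoln1), while 4.99% of all genes were higher and 5.21% lower in this way.

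The 3 calls in MD+CA against MD depended on single libraries. The count was 0 without MD replicate 1, MD replicate 2 or MD+CA replicate 2, and 0 when the third group was left out of the fit. It was 1 (Ctss) without MD replicate 4 or MD+CA replicate 3, and 2 without CD replicate 3. It was 4 without MD replicate 3, where Lgmn joined, or MD+CA replicate 4, where Npc1 joined. The fold changes moved little: without any 1 library they stayed between 0.94 and 1.22 for Ctsc, 1.07 and 1.51 for Ctss, and 0.74 and 1 for Ifi30 on the log2 scale. With the fragment length allowance as a covariate Ctss remained called, at a log2 fold change of 0.96, and Ctsc and Ifi30 had 1.01 and 0.90 with adjusted p of 0.0517 and 0.0514 in edgeR. For MD+CA against CD the count was 2 without MD replicate 2, where Lgmn joined Ifi30, or MD+CA replicate 4, where Npc1 did.

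**Figure D2:**
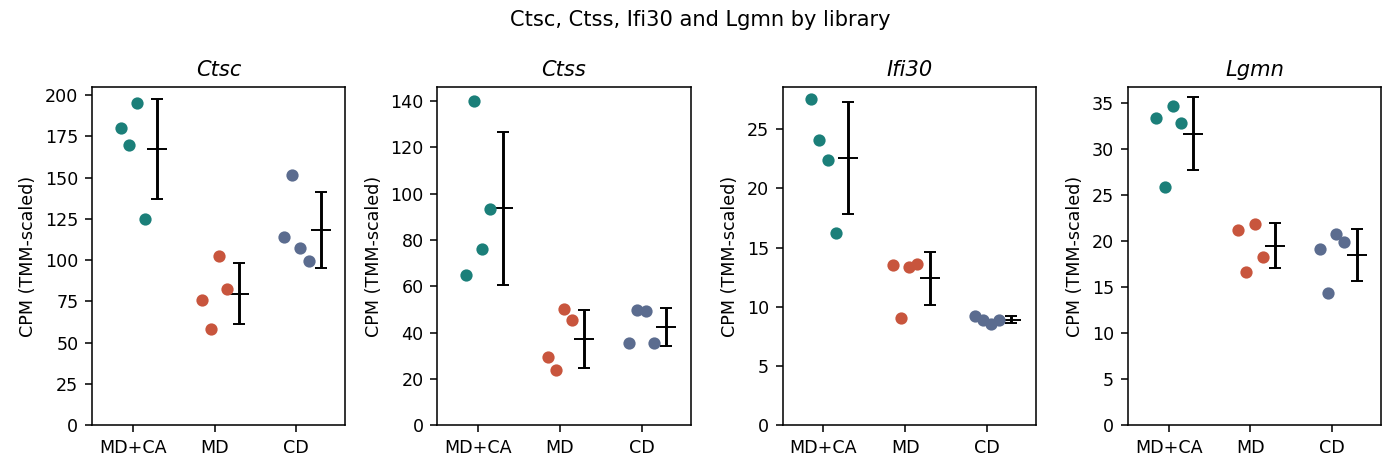
CPM of Ctsc, Ctss, Ifi30 and Lgmn in each library of the MD+CA, MD and CD groups (points); black bars give the mean and SD of 4 libraries. The 4 MD+CA libraries lie above all MD libraries in each panel; for Ctsc they overlap CD.

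Several Kupffer cell markers were also higher in MD+CA livers. Of 12 Kupffer cell markers, all tested, 5 were called higher in MD+CA against MD livers in edgeR (Vsig4, Cd5l, Marco, C1qa and Csf1r) and 0 lower. Against CD livers 4 were called higher (Cd5l, Marco, C1qb and Csf1r) and 0 lower, and against CD the MD livers had 0 called and 0 at an unadjusted p under 0.05 in edgeR. Of all genes edgeR called 1.09% higher and 1.68% lower in MD+CA against MD livers, and 0.22 and 0.308% in MD+CA against CD livers. Unadjusted, 10.6% of all genes were higher and 9.41% lower in MD against CD livers. DESeq2 called 11 and limma voom 5 of the 12 higher in MD+CA against MD livers, and 10 and 8 in MD+CA against CD livers. The shares of all genes that DESeq2 and limma voom called are not given here, for this or any other list. The 12 markers summed to 422 to 822 CPM in MD+CA livers, 199 to 337 CPM in MD livers and 252 to 314 CPM in CD livers, and none was at 0. Cd5l, a secreted scavenger protein of Kupffer cells, had 223, 179, 165 and 104.3 CPM in MD+CA livers, 36.4, 55.2, 64.5 and 58.9 CPM in MD livers and 90.1, 70.7, 56.5 and 63.2 CPM in CD livers. Clec4f, the lectin that defines mouse Kupffer cells, had 199, 137, 219 and 103.6 CPM in MD+CA livers, 73.3, 121, 107.9 and 98.7 CPM in MD livers and 105.7, 74.2, 87.6 and 82.2 CPM in CD livers. Their part in the higher Ctsc, Ctss and Ifi30 levels was not tested.

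Among 11 genes of MHC class II and of the interferon-gamma response, all tested, edgeR called 0 in any comparison. DESeq2 called 5 higher in MD+CA against MD livers and 6 in MD+CA against CD livers, and limma voom called 0 and 2. Unadjusted in edgeR, 6 of the 11 were higher in MD+CA against MD livers, with 11.6% of all genes. In MD+CA against CD livers 8 of the 11 were higher, with 6.18% of all genes. In either comparison 0 were lower, and 0 passed in MD against CD livers. Their summed level was 257 to 786 CPM in MD+CA livers, 218 to 255 CPM in MD livers and 195 to 221 CPM in CD livers. Cd74, the invariant chain that Ctss trims, had 77.1, 156, 42.7 and 66.7 CPM in MD+CA livers, 41.2, 32.7, 43.5 and 48.96 CPM in MD livers and 34.5, 29.4, 34.97 and 40.7 CPM in CD livers, with an adjusted p of 0.0718 in edgeR for MD+CA against MD.

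Of the markers of recruited macrophages, 8 of 12 were tested. Lpl, the lipoprotein lipase, was called higher in MD+CA livers, with 105.1, 137, 59.6 and 64.1 CPM against 24.2, 36.8, 26.8 and 23.2 CPM in MD livers and 23.4, 33.4, 33.5 and 21.9 CPM in CD livers. In edgeR that was 1 of the 8 in MD+CA against MD and against CD livers, with 1.09 and 0.22% of all genes called higher. The most abundant genes of this list, Fabp5 and Spp1, were not called in any comparison in edgeR, and the summed level was 228 to 533 CPM in MD+CA livers, 204 to 349 CPM in MD livers and 564 to 1192 CPM in CD livers. Fabp5, a fatty acid binding protein, made up most of the CD sum, with 19.8, 40.8, 301 and 66.7 CPM in MD+CA livers, 60.3, 37.1, 69.3 and 135 CPM in MD livers and 566, 1058, 369.5 and 912 CPM in CD livers. DESeq2 and limma voom called Fabp5 lower in MD+CA against CD and in MD against CD livers, where edgeR gave adjusted p of 0.0835 and 0.0878. Both called Lpl and Cx3cr1 higher in MD+CA against CD livers, and DESeq2 also Lyz2. In MD+CA against MD livers both called Lpl higher, and DESeq2 also Lyz2. Unadjusted in edgeR, 5 of the 8 were higher and 2 lower in MD+CA against CD livers, with 6.18 and 4.35% of all genes. In MD+CA against MD livers 2 were higher and 0 lower, with 11.6% of all genes in each direction. In MD against CD livers these were 3 and 2, with 10.6 and 9.41%.

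Markers of 4 other immune cell types were thinly represented, and in each the summed level of MD+CA livers overlapped that of both other groups. The mean sums of the T and NK cell and neutrophil lists were highest in MD+CA livers, at 5.16 and 8.15 CPM. They were 2.1 and 4.3 CPM in MD livers and 3.0 and 2.28 CPM in CD livers. None of the 8 T and NK cell markers had enough reads to test, led by Gzma and Klrb1c, and their sum was 2.41 to 8.59 CPM in MD+CA livers, 1.43 to 2.59 CPM in MD livers and 2.68 to 3.44 CPM in CD livers. Neutrophil markers, led by Csf3r and S100a9, summed to 1.90 to 17.5 CPM in MD+CA livers, 2.79 to 6.004 CPM in MD livers and 1.72 to 3.49 CPM in CD livers, and Ly6g was at 0 in all 12 libraries. Dendritic cell markers, led by Clec9a and Siglech, summed to 6.92 to 13.7 CPM in MD+CA livers, 9.54 to 23.9 CPM in MD livers and 6.58 to 8.55 CPM in CD livers. B cell markers, led by Ighm and Ms4a1, summed to 8.92 to 14 CPM in MD+CA livers, 6.69 to 13.5 CPM in MD livers and 7.60 to 16.7 CPM in CD livers. No marker of these 4 lists was called in edgeR in any comparison. Tested were 2 neutrophil, 3 dendritic cell and 3 B cell markers. Unadjusted in edgeR, 1 neutrophil and 1 B cell marker were higher in MD+CA against MD livers, and 2 neutrophil markers in MD+CA against CD livers. In MD against CD livers 1 neutrophil and 2 dendritic cell markers were higher, and none was lower in any comparison. Of all genes, 11.6, 6.18 and 10.6% were higher in these comparisons.

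The other liver cell types gave no called marker in edgeR. The 9 endothelial markers, led by Fcgr2b and Kdr, summed to 80.3 to 163 CPM in MD+CA livers, 163 to 230 CPM in MD livers and 113 to 180 CPM in CD livers. Unadjusted in edgeR, 0 of these 9 were higher and 5 lower in MD+CA against MD livers, with a median log2 fold change of -0.57, 0 passed in MD+CA against CD livers, and 4 were higher and 0 lower in MD against CD livers. The 10 stellate cell markers, led by Dcn and Col3a1, summed to 111 to 211 CPM in MD+CA livers, 199 to 259 CPM in MD livers and 120 to 158 CPM in CD livers. Of the 9 tested, 0 were higher and 2 lower unadjusted in MD+CA against MD livers, 1 was higher in MD+CA against CD livers, and 4 were higher and 0 lower in MD against CD livers. Of all genes, 11.6% were higher and 11.6% lower unadjusted in MD+CA against MD livers. The shares were 6.18 and 4.35% in MD+CA against CD livers and 10.6 and 9.41% in MD against CD livers. Cholangiocyte markers, led by Sox9 and Epcam, summed to 20.9 to 70.1 CPM in MD+CA livers, 19.2 to 49.1 CPM in MD livers and 17.0 to 28.2 CPM in CD livers. Hepatocyte markers, led by Alb and Apoa1, were abundant in every library, as the liver label has it, and Alb had 38510, 26970, 27910 and 45510 CPM in MD+CA livers, 30710, 16600, 37580 and 33040 CPM in MD livers and 34960, 33560, 45080 and 41690 CPM in CD livers. DESeq2 called Stab1 and Dcn lower and Fgb higher in MD+CA against MD livers, and Lyve1, Dcn and Krt19 higher in MD against CD livers, of which limma voom called Lyve1 and Dcn in MD against CD livers.

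Of 6 genes of the circadian clock, edgeR called 1 higher and 4 lower in MD+CA against MD livers, with 1.09 and 1.68% of all genes. Bmal1, the activator of the clock, had 17.1, 8.76, 14.6 and 10.2 CPM in MD+CA livers, 1.33, 1.93, 1.13 and 0.716 CPM in MD livers and 2.70, 1.62, 2.42 and 0.765 CPM in CD livers, a difference of 3.31 (SE 0.39, adjusted p = 0.00132) on the log2 scale for MD+CA against MD in edgeR. The other called genes were Per3, Ciart and Nr1d2, which repress clock genes, and Dbp, an output factor of the clock, and all 4 were lower. The log2 fold changes in MD+CA against MD livers in edgeR were -4.35 (SE 0.55, adjusted p = 0.00158) for Ciart, -3.62 (SE 0.60, adjusted p = 0.0135) for Dbp and -1.16 (SE 0.28, adjusted p = 0.0402) for Nr1d2. Per3, which peaks at another time of day, had 3.86, 4.83, 1.52 and 11.8 CPM in MD+CA livers, 58.2, 91.1, 56.8 and 58.03 CPM in MD livers and 42.2, 47.3, 28.4 and 48.2 CPM in CD livers. The labels used here give no hour of collection, and its part in the lysosomal genes was not tested.

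The promoters of the 3 called genes are shown because these genes were called in the same comparison. Sequences are RefSeq's for GRCm38.p6, a different build from that of the expression tables, and run 5′ to 3′ on the gene's strand from 250 bases before the annotated start to 50 after it. Capitals mark matches, on either strand, to letters searched by script: TCACGTGA, the core of the element bound by TFEB; the ISRE core, GAAA and GAAA with any pair of bases between them, from interferon-stimulated response elements; and GAGGAAGT, the letters of a site of the myeloid factor PU.1. A match is a description of letters, not evidence of binding.
Ctss, chr3:95526536-95526835, plus strand: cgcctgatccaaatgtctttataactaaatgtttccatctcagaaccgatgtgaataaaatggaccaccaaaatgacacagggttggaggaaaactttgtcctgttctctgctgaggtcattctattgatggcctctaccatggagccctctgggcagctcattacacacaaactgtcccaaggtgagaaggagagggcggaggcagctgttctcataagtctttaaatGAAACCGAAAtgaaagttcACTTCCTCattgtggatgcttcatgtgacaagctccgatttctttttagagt
Ctsc, chr7:88277835-88278134, plus strand: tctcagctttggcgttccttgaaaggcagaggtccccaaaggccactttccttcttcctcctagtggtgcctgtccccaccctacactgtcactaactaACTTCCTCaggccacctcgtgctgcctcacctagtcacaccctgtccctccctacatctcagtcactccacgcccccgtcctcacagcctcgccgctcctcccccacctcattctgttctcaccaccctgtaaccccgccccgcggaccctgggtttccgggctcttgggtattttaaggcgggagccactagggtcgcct
Ifi30, chr8:70766614-70766913, minus strand: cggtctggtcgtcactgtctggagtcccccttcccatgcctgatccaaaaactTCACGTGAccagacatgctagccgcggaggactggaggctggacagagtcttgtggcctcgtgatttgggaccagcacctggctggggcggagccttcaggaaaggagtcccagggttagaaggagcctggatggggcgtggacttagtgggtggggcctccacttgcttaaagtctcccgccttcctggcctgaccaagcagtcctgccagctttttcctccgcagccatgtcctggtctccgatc

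The Ctss window held the ISRE core from position -21 and GAGGAAGT, on the opposite strand, from position -2, counted from the annotated start. The Ctsc window held GAGGAAGT, also on the opposite strand, from position -151. The Ifi30 window held TCACGTGA from position -197, and no match to the other 2 strings. Among all 27025 genes with a promoter in the table, 3.99% held the ISRE core and 3.69% GAGGAAGT. Promoters of 39 of the 44 members were in the table, and 3 and 4 of these 39 genes held these 2 strings. The ISRE core was in Ctso, Ctss and Lamp1, and GAGGAAGT in Ctsc, Ctss, Gla and Gusb.

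The remaining proteases gave no call in edgeR, while DESeq2 also called Lgmn higher in MD+CA against MD and against CD livers. Of the 13 tested genes in this class, Ifi30 included, 3 were called higher and 0 lower in MD+CA against MD livers in edgeR, with a median log2 fold change of 0.25 and a range from -0.45 to 1.33. Tpp1, the tripeptidyl peptidase, had 29.7, 27.2, 34.2 and 41.6 CPM in MD+CA livers, 47.4, 51.8, 40.9 and 41 CPM in MD livers and 38.1, 29.7, 36.3 and 31.6 CPM in CD livers. MD libraries lay above all CD libraries, while MD+CA libraries overlapped both. Its log2 fold change was 0.41 (SE 0.18, adjusted p = 0.221) for MD against CD and -0.45 (SE 0.18, adjusted p = 0.155) for MD+CA against MD in edgeR.

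Ctsl had 441, 407, 880.3 and 433 CPM in MD+CA livers, 334, 163, 458 and 367 CPM in MD livers and 567, 574, 609 and 518 CPM in CD livers. Every MD library lay below every CD library, and in MD+CA livers replicate 3 stood far above the other 3. Its log2 fold change was -0.78 (SE 0.31, adjusted p = 0.192) for MD against CD and 0.71 (SE 0.31, adjusted p = 0.187) for MD+CA against MD in edgeR, neither past the threshold. The MD against CD value was -0.56 with the fragment length allowance as a covariate and -1.01 with an offset for the average transcript length. Ctsz, a carboxypeptidase, was at nearly one level, with 244 ± 55.9 CPM in MD+CA livers, 240.5 ± 62.96 CPM in MD livers and 242 ± 15.2 CPM in CD livers (SD, n = 4 each). Its single libraries had 288, 198, 296 and 193 CPM in MD+CA livers, 266, 158, 231 and 307 CPM in MD livers and 242, 221, 255 and 251 CPM in CD livers, and the groups overlapped.

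In MD against CD livers 3 members were higher in every MD than in every CD library (Ctsa, Tpp1 and Cd63) and 1 was lower (Ctsl), while 5.99% of all genes were higher and 7.12% lower in this way. Ctsa, the protective protein that carries sialidase and beta-galactosidase, and Cd63, a tetraspanin of late endosomes, had adjusted p of 0.352 and 0.286 in edgeR in that comparison.

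**Figure D3:**
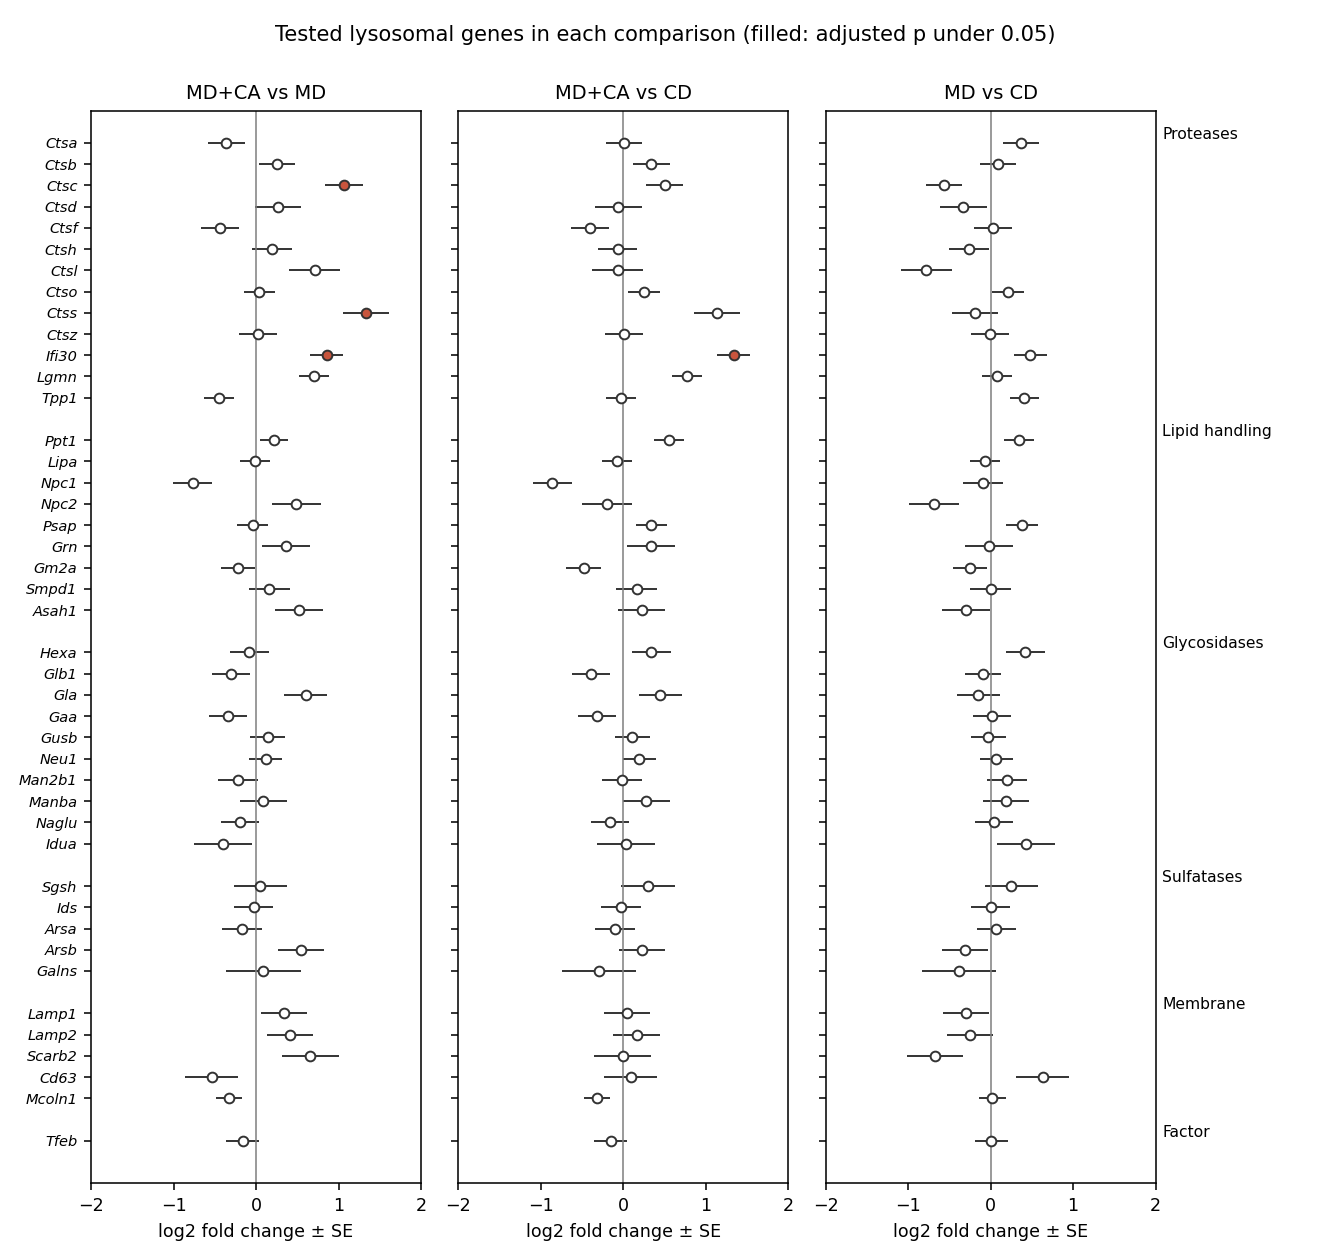
log2 fold change ± SE of the 43 tested lysosomal genes, by role from top to bottom, in MD+CA against MD, MD+CA against CD and MD against CD livers (4 libraries each). Filled points have an adjusted p under 0.05: Ctsc, Ctss and Ifi30 on the left, Ifi30 in the middle and none on the right.

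Among the 9 genes of lipid handling, none was called in any comparison in edgeR; DESeq2 and limma voom called Npc1 lower in MD+CA against MD and against CD livers. Npc1, the membrane transporter that moves cholesterol out of lysosomes, had 32.4, 39.6, 36.5 and 71.6 CPM in MD+CA livers, 82.3, 84.5, 67.5 and 71.96 CPM in MD livers and 93.2, 68.6, 76.8 and 87.2 CPM in CD livers. In MD+CA livers 3 libraries lay below all 8 of the other groups, and replicate 4 lay among them. Its log2 fold change was -0.77 (SE 0.24, adjusted p = 0.0811) for MD+CA against MD and -0.86 (SE 0.24, adjusted p = 0.125) for MD+CA against CD in edgeR. Without MD+CA replicate 4 these were -1.08 and -1.18 and both were called in edgeR.

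Its soluble partner Npc2, which hands cholesterol to Npc1, did not follow it. Npc2 had 60.02, 47.3, 74.9 and 62.7 CPM in MD+CA livers, 37.7, 18.2, 67.2 and 50.7 CPM in MD livers and 64.8, 62.7, 68.4 and 84.4 CPM in CD livers. MD replicates 1 and 2 were the lowest of the 12 libraries, and all groups overlapped. The log2 fold change was -0.69 (SE 0.30, adjusted p = 0.222) for MD against CD in edgeR, and -0.52 with the fragment length allowance as a covariate.

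Ppt1, which removes palmitate from proteins, had 23.5, 22.4, 31.4 and 27.8 CPM in MD+CA livers, 22.7, 18.2, 25.3 and 24.04 CPM in MD livers and 20, 16.4, 17.98 and 17.2 CPM in CD livers. Every MD+CA library was above every CD library, the log2 fold change being 0.55 (SE 0.18, adjusted p = 0.19) for MD+CA against CD in edgeR, which did not pass. Gm2a, the activator protein for ganglioside breakdown, had 43.7, 37.9, 46.6 and 38.7 CPM in MD+CA livers, 55.4, 31.2, 55.1 and 52.9 CPM in MD livers and 58.2, 48.1, 51.6 and 74.3 CPM in CD livers. Every MD+CA library was below every CD library, the log2 fold change being -0.48 (SE 0.21, adjusted p = 0.425) in edgeR. Against CD livers, MD+CA livers had 4 members higher without overlap (Ctss, Ifi30, Lgmn and Ppt1) and 2 lower (Gm2a and Mcoln1), when 3.5% of all genes were higher and 2.91% lower in this way.

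Progranulin (Grn), whose granulins act in lysosomes, had 192, 232, 405 and 186 CPM in MD+CA livers, 149, 127, 279 and 238 CPM in MD livers and 179.8, 204, 232 and 188 CPM in CD livers, with all groups overlapping. Lipa, the acid lipase that frees cholesterol from its esters, averaged 95.3 ± 16.6 CPM in MD+CA livers, 96.1 ± 10.9 CPM in MD livers and 100.8 ± 5.02 CPM in CD livers (SD, n = 4 each). Smpd1 and Asah1, which break down sphingomyelin and ceramide, and Psap, the precursor of the saposins, were not called in any comparison in edgeR. The 9 genes ranged from -0.77 to 0.52 on the log2 scale in MD+CA against MD livers, from -0.86 to 0.55 in MD+CA against CD livers and from -0.69 to 0.38 in MD against CD livers.

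No glycosidase and no sulfatase was called in any comparison in edgeR. The 10 glycosidases, which remove sugars from glycolipids, glycogen and glycosaminoglycans, lay between -0.40 and 0.60 on the log2 scale in MD+CA against MD livers. They lay between -0.39 and 0.45 in MD+CA against CD livers and between -0.15 and 0.43 in MD against CD livers. At an unadjusted p under 0.05, 1 passed, Gla, the alpha-galactosidase, higher in MD+CA against MD livers at 18 to 52 reads per library. The 5 sulfatases lay between -0.17 and 0.54, -0.30 and 0.30, and -0.38 and 0.25 in the same 3 comparisons, and 0 passed unadjusted. They are the weakest measured class: their highest mean, that of Arsb, was 4.03 TPM, and Galns had 8 to 36 reads per library. The most abundant glycosidase, the sialidase Neu1, averaged 26.1 TPM in MD+CA livers, 20.9 TPM in MD livers and 23.04 TPM in CD livers.

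The membrane proteins gave no call in edgeR either. Lamp1, which with Lamp2 forms most of the glycoprotein coat inside the lysosomal membrane, had 399.5, 327, 427 and 422 CPM in MD+CA livers, 299.9, 136, 417 and 388 CPM in MD livers and 392, 358, 385 and 398 CPM in CD livers. Lamp2, the receptor of chaperone-mediated autophagy in its A form, had 209, 249, 307 and 438 CPM in MD+CA livers, 247, 130.4, 276 and 252 CPM in MD livers and 212, 281, 322 and 264 CPM in CD livers. For both genes MD replicate 2 was the lowest library, and the other 11 overlapped across groups.

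Scarb2, the receptor that carries glucocerebrosidase to lysosomes, had 91.2, 151, 163 and 159.8 CPM in MD+CA livers, 67.7, 38.1, 153 and 98.7 CPM in MD livers and 116, 151, 180.1 and 123 CPM in CD livers. The low libraries were spread over all 3 groups. Its log2 fold change was 0.66 (SE 0.34, adjusted p = 0.254) for MD+CA against MD and -0.67 (SE 0.34, adjusted p = 0.278) for MD against CD in edgeR. With the fragment length allowance as a covariate these were 0.25 and -0.24.

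Mcoln1, the calcium channel of the lysosomal membrane whose current activates TFEB through calcineurin, had 21.6, 20.8, 25.9 and 23.4 CPM in MD+CA livers, 29.99, 31.8, 27.1 and 26.8 CPM in MD livers and 33.7, 26.3, 27.7 and 26.3 CPM in CD livers. Every MD+CA library was below every MD and CD library, but the log2 fold changes of -0.33 (SE 0.16, adjusted p = 0.226) for MD+CA against MD and -0.32 (SE 0.16, adjusted p = 0.548) for MD+CA against CD did not pass in edgeR. Transcripts of Mcoln1 not labelled protein-coding held on average 44.1% of its reads in MD+CA, 54.2% in MD and 44.2% in CD livers. Tfeb itself had 6.25, 6.96, 6.20 and 4.84 CPM in MD+CA livers, 5.39, 7.63, 7.06 and 7.005 CPM in MD livers and 7.97, 6.48, 6.44 and 5.98 CPM in CD livers, and the groups overlapped. Its activity is set largely by its move into the nucleus, which mRNA levels do not measure.

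TFEB binds a palindrome around the E-box CACGTG in the promoters of lysosomal genes. The letters CACGTG were in the promoters of 14 of the 39 members in the table (35.9%), when 8.09% of all 27025 genes held them. The 8 letters TCACGTGA were in 5 members (12.8%), Ctsa, Ctsd, Gla, Ifi30 and Mcoln1, and in 1.13% of all genes. The longer palindrome, with G before and C after these letters, was in 0 of the 39 and in 0.37% of all genes. Of the 14 genes with CACGTG, edgeR called 1 in any comparison, Ifi30, and DESeq2 also called Lgmn. More than 1 copy of CACGTG was in Ctsa, Ctsd, Gla, Lamp1 and Mcoln1. The windows of Lamp1, which held 4 copies, and of Mcoln1, which was lower in every MD+CA than in every other library, are shown, chosen after their values were seen, with CACGTG, TCACGTGA and the ISRE core in capitals.
Lamp1, chr8:13158911-13159210, plus strand: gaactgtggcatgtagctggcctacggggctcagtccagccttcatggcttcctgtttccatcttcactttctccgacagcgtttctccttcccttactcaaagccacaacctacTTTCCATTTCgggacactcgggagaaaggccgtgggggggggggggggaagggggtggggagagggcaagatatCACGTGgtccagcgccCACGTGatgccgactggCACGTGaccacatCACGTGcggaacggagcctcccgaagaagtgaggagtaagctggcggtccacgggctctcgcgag
Mcoln1, chr8:3500269-3500568, plus strand: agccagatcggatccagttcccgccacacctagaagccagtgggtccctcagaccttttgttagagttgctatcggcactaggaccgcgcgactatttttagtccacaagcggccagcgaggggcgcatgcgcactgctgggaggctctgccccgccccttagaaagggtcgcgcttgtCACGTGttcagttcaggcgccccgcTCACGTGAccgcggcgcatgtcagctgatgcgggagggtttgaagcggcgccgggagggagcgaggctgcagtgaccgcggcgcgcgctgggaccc

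The Lamp1 window held CACGTG from positions -61, -45, -28 and -15, and the ISRE core on the opposite strand from position -135. The Mcoln1 window held CACGTG from positions -71 and -45, the second inside TCACGTGA from position -46. All of these lie within 135 bases before the annotated start.

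Other genes of the pathway are given from further lists. Of 31 other lysosomal genes, 29 were tested, and Cd68 and Laptm5 were higher in MD+CA against CD livers, both known as genes of macrophages and other white blood cells. In that comparison edgeR called 0.22% of all genes higher. Cd68 had 5.33, 7.28, 7.59 and 6.48 CPM in MD+CA livers, 2.59, 3.66, 3.98 and 3.82 CPM in MD livers and 2.5, 1.82, 2.42 and 2.92 CPM in CD livers, which differed by 1.45 (SE 0.24, adjusted p = 0.0163) on the log2 scale for MD+CA against CD in edgeR. Laptm5 had 21.6, 18.7, 21.5 and 12.97 CPM in MD+CA livers, 9.67, 14.96, 9.54 and 10.3 CPM in MD livers and 9.66, 8.20, 8.23 and 9.80 CPM in CD livers, which differed by 1.06 (SE 0.21, adjusted p = 0.0429) on the log2 scale in edgeR. Against MD livers 0 of the 29 were called in edgeR. Unadjusted, 3 were higher and 2 lower there, when 11.6% of all genes passed in each direction. DESeq2 and limma voom called Cd68 and Laptm5 higher there too. In edgeR these 2 had adjusted p of 0.0511 and 0.0634 in MD+CA against MD livers.

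Of the 18 subunits and partners of the proton pump, the 11 genes of enzyme delivery such as the mannose 6-phosphate receptor M6pr, and the 17 autophagy genes, edgeR called 0 in each comparison. Unadjusted counts in MD+CA against MD livers were 1 higher and 1 lower for the pump, 2 higher and 0 lower for delivery, and 1 higher and 0 lower for autophagy. In MD+CA against CD livers they were 0 and 1, 0 and 0, and 0 and 0. In MD against CD livers they were 3 and 0, 0 and 3, and 1 and 0. The shares of all genes, higher and lower, were 11.6 and 11.6%, 6.18 and 4.35%, and 10.6 and 9.41% in these comparisons. DESeq2 called Atp6v0b of the pump lower and Sumf1 of delivery higher in MD+CA against MD livers, and limma voom called 0 of these genes. Median log2 fold changes of these 3 lists ranged from -0.13 to 0.12 over the comparisons.

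Of the 7 inhibitors of cysteine cathepsins, Cst3 and Cstb were tested and not called, with 0 also at an unadjusted p under 0.05, and Stfa1, Stfa2 and Stfa3 were at 0 in all libraries. Cst3, cystatin C, had 136, 147, 145 and 103.7 CPM in MD+CA livers, 128, 62.6, 161 and 158 CPM in MD livers and 100.3, 122, 131 and 132 CPM in CD livers, with all groups overlapping.

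Of 18 genes that control TFEB, including mTORC1, the Ragulator complex and folliculin, all tested, edgeR called 1, Fnip2. Fnip2, a folliculin partner in the nutrient signal that keeps TFEB in the cytoplasm, had 12.9, 13.01, 8.99 and 20.4 CPM in MD+CA livers, 37.1, 30.2, 26.97 and 29.2 CPM in MD livers and 42.6, 40.2, 25.8 and 33.2 CPM in CD livers. Every MD+CA library was below every other library. The log2 fold change was -1.15 (SE 0.24, adjusted p = 0.023) for MD+CA against MD and -1.35 (SE 0.24, adjusted p = 0.0273) for MD+CA against CD in edgeR. In these comparisons edgeR called 1.68 and 0.308% of all genes lower. Unadjusted in edgeR, 0 of the 18 were higher and 5 lower in MD+CA against MD livers, with 11.6% of all genes in each direction. In MD+CA against CD livers 0 were higher and 2 lower, with 6.18 and 4.35% of all genes. In MD against CD livers 3 were higher and 1 lower, with 10.6 and 9.41% of all genes, and 0 were called. DESeq2 called 4 lower in MD+CA against MD livers (Flcn, Fnip1, Fnip2 and Zkscan3) and Fnip2 in MD+CA against CD livers, and limma voom called Fnip2 in both.

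Transcripts of several members were assigned differently from library to library, and some of their shares separated between libraries of shorter and longer fragment length allowance. The 12 libraries were split into the 6 with shorter allowances, 221 to 258 bases (1 MD+CA, 3 MD and 2 CD libraries), and the 6 with longer ones, 261 to 280 bases, a split made after the values were seen. Of 82 member transcripts that held at least 15% of their gene's TPM in some library and at most 85% in some library, 19, from 11 genes, did not overlap between the shorter and longer libraries (23.2%). Among 33805 such transcripts of all tested genes, 1758 did not overlap (5.2%), with no matching for expression level or for transcripts per gene. Shares of transcripts of 1 gene depend on each other, so these are not separate results. Counted by gene, they were 11 of 30 members (36.7%) and 1222 of 9934 tested genes (12.3%). The cause was not tested.

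Psap-202, 1 of the coding transcripts of prosaposin, took 27.0 to 83.5% of the gene's TPM in the shorter libraries and 0 to 11.9% in the longer ones, while Psap-201 took 0 to 62.9% and 75.8 to 89.8%. Lgmn-202 took 56.0 to 83.9% in the shorter libraries and was listed at 0 in all 6 longer ones. Ctsl-201 took 70.5 to 90.8% and 20.1 to 49.3%. The same held for transcripts with a retained intron: Npc2-203 took 27.9 to 54.6% in the shorter and 0 to 14.2% in the longer libraries, and Asah1-203 took 53.0 to 89.7% and 12.6 to 47.1%. The split ran through each group. Psap-202 took 59.0% in MD+CA replicate 1 and 0 to 11.9% in the other 3 MD+CA libraries. It took 8.32% in MD replicate 3 and 68.3 to 83.5% in the other 3 MD libraries. Among the shorter libraries it took only 27.0% in CD replicate 1 and 33.4% in CD replicate 4. The shorter libraries included 3 MD libraries, and group and allowance were not tested apart. Lamp2-201 and Lamp2-202 by comparison took 57.1 to 60.8% and 37.3 to 40.3% in the shorter libraries and 59.9 to 68.0% and 29.1 to 37.6% in the longer ones.

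**Figure D4:**
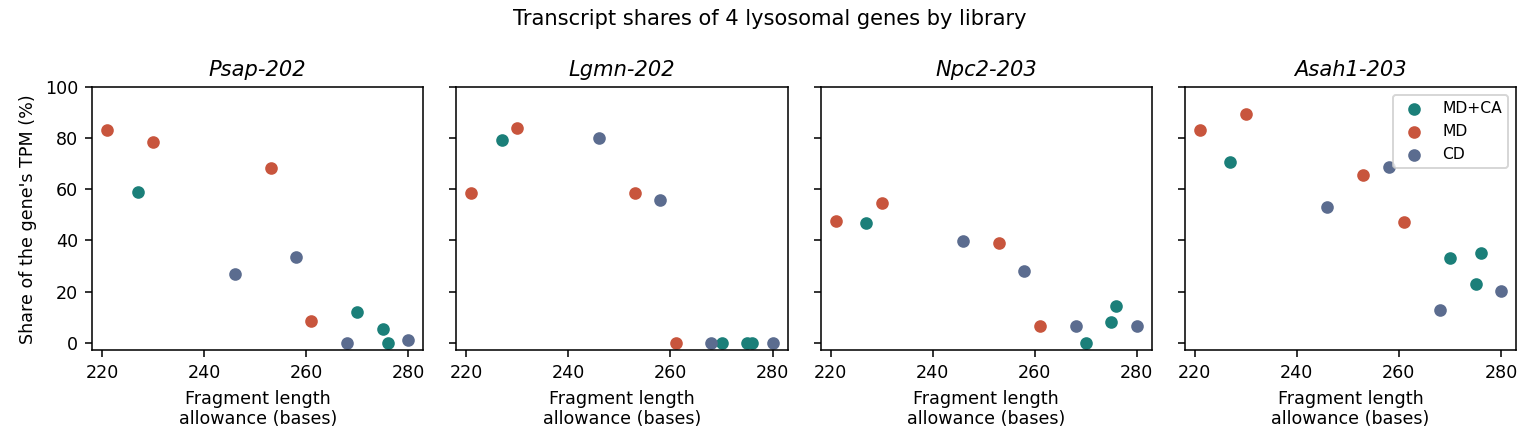
Share of the gene's TPM (percent) taken by Psap-202, Lgmn-202, Npc2-203 and Asah1-203 in each library against its fragment length allowance in bases, coloured by group. Lgmn-202 is at 56.0% or more in the 6 libraries up to 258 bases and at 0 in the 6 from 261 bases, with libraries of each group on both sides.

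Whole-gene levels of most members did not separate by the same split. Of the 43 tested members, 1 was higher in every shorter library (Gaa) and 2 were lower (Asah1 and Scarb2). These are 2.33% and 4.65% of the members, when 2.66% and 2.11% of all genes did so. Scarb2 had 38.1 to 123 CPM in the shorter and 151 to 180 CPM in the longer libraries. Ctss had 23.8 to 64.7 CPM and 49.3 to 140 CPM, which overlapped. Ifi30 had 8.90 to 27.6 CPM and 8.59 to 24.1 CPM, nearly the same range. Within MD livers, replicates 1 and 2, with 230 and 221 bases, were the lowest 2 libraries for Ctsl, Npc2, Scarb2 and Lamp1.

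**Figure D5:**
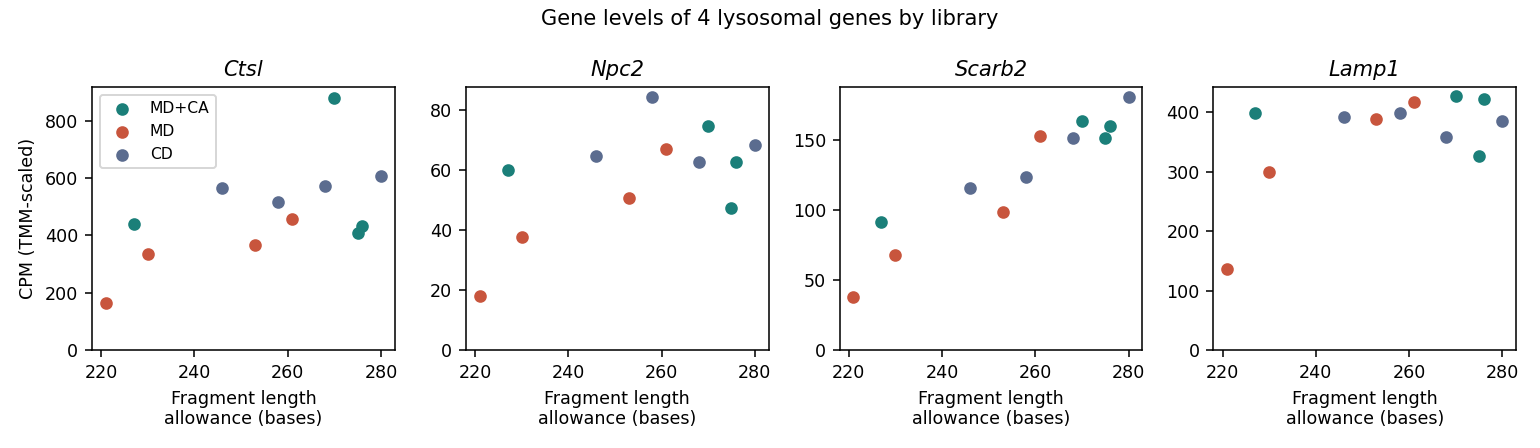
CPM of Ctsl, Npc2, Scarb2 and Lamp1 in each library against its fragment length allowance in bases, coloured by group. MD replicate 2, at 221 bases, is the lowest point in all 4 panels. Scarb2 lies between 38.1 and 123 CPM up to 258 bases and above that from 261 bases. Ctsl, Npc2 and Lamp1 overlap between these shorter and longer allowances.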

How the data were processed

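The authors' poly(A) libraries of mouse liver were deposited as 1 table per library with 147556 transcripts. Per the submitters' processing notes the tools were fastp, Salmon 1.10.3 and DESeq2, with the mouse build GRCm39; options, annotation release and strand are unnamed there. Its expected counts, the estimated reads per transcript, and its TPM values, scaled for length and depth, are used as deposited by the authors, per the file headers. The length allowance comes from the deposited effective lengths.

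Expected counts were summed by gene symbol and rounded. Genes passed filterByExpr of edgeR 4.0.16 (minimum count 10), which left 13620. One quasi-likelihood model with a mean per group was fitted to all 12 libraries (TMM factors, common BCV 0.307, 9 residual degrees of freedom). P-values were adjusted over all tested genes by the Benjamini-Hochberg method (threshold 0.05), and SE is the absolute log2 fold change over the square root of F. CPM values are TMM-scaled and not per length. The strand setting is unknown, so reads of overlapping genes on opposite strands cannot be told apart. DESeq2 1.42.0 and limma 3.58.1 (voom) served as alternatives, with R 4.3.3, Python 3.11.15, pandas 2.3.3, matplotlib 3.10.9 and numpy 2.4.6. Of all 43 tested members, those given with every library are the called ones, the 6 with the smallest unadjusted p in each comparison, the 5 with the highest mean TPM, Tfeb and Mcoln1. From the other lists, genes called in edgeR are named, and from marker lists also the 2 most abundant; Cd74, M6pr, genes called by DESeq2 or limma voom alone, the transcript examples, and members named besides in a count or an example were chosen after their values were seen. The members and lists were chosen with earlier results of these data known. One gene of the MHC class II and interferon-gamma list and one of the B cell list are not reported here.

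Counts simulated for 13620 genes with known changes were tested. They were drawn from the mean levels and dispersions of the same fit, without differences in library quality, so they check the model only under its own assumptions. The model recovered 18% of 2-fold and 74% of 4-fold changes in MD+CA against MD, 30 and 92% in MD+CA against CD, and 34 and 88% in MD against CD. Of its calls 6.62, 2.52 and 5.49% were false. Each comparison rests on a single draw of random genes, so differences between these rates cannot be read as differences in power.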

Additional observations from a re-analysis of the deposited data

Results flagged for a closer look

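In 51 sets of 4 libraries, for the 17 members given with every library in the 3 groups, 4 sets held 1 library whose gap to the nearest other exceeded Dixon's 95% limit, and chance alone flags about 1 in 20. Ctsl in MD+CA livers had 880 CPM in replicate 3, when the other 3 libraries had 407 to 441 CPM. Ifi30 in MD livers had 9.06 CPM in replicate 2, when the others had 13.4 to 13.6 CPM. Gm2a in MD livers had 31.2 CPM in the same replicate, when the others had 52.9 to 55.4 CPM. Scarb2 in MD+CA livers had 91.2 CPM in replicate 1, when the others had 151 to 163 CPM. MD replicate 2 had the highest mitochondrial share, 17.5%, and MD+CA replicate 1 had the shortest fragment length allowance of its group, 227 bases; their part in these values was not tested.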

How the results depend on the processing

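No fold change printed for a member turned its direction under the 22 alternatives run for single genes. In MD+CA against MD, DESeq2 called 5 members, limma voom 4, the fit of only both compared groups 0 and the fragment length covariate 1, and leaving out single libraries gave 0 to 4. In MD+CA against CD, DESeq2 called 4, limma voom 3, no low-count filter 2, the fragment length covariate 3, and leaving out single libraries 1 to 2. MD against CD gave 0 in every alternative. The shares of all genes called are given for the main edgeR fit only. With the replicate block, the counts were 4 in MD+CA against MD, 2 in MD+CA against CD and 0 in MD against CD. The numbers are not stated to pair samples, and same-numbered libraries correlated between -0.0769 and 0.349 in their deviations from the group means. Called members held in 18 (Ctss), 15 (Ctsc) and 13 (Ifi30) of 22 alternatives in MD+CA against MD. Robust dispersion, chosen after seeing the data, gave 4, 1 and 0. As shares of reads in place of TPM the members made up 0.377% in MD+CA, 0.312% in MD and 0.35% in CD livers. Members with few reads, such as Galns and Gla, limit what can be seen of sulfatases and glycosidases.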
